A study of Mus musculus with 11 samples.

Results

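The comparison described here sets the cortex of the non-infarcted side 1 m after photothrombosis (PT) with levetiracetam (LEV) against the same side at the same time without the drug. It uses 2 of the 11 libraries of the series, 1 with LEV and 1 without, and the 12498 of 22377 genes whose mean level in these 2 libraries was at least 5 CPM (tags per 1000000 tags of the library). At this limit Dlx5, with 4.05 CPM in the LEV library and 5.96 CPM in the no-drug library, was just inside, and Dnajc28, with 5.71 CPM in the LEV library and 4.28 CPM in the no-drug library, was just outside. All mice were male C57BL/6N. Rose bengal was given and the left parietal region was lit, which clots the vessels under the light and leaves a small cortical infarct. The non-infarcted side is the other hemisphere of such mice. LEV was given in the drinking water at 5 mg/mL according to the design text. That text puts the start of LEV at 1 month after PT, for 2 weeks, with 1 week of withdrawal, while the labels have LEV libraries at 7 d and 1 m and a withdrawal of 2 weeks, so how long the mice of the LEV library had taken the drug is not known here. Ages of 8 to 10 and 65 to 85 weeks are named for the study and not for each library. How many mice went into a library, and whether both sides came from the same mice, is not stated. Electrodes and the convulsant pentylenetetrazol, a GABA-A receptor antagonist, are also part of the study, and which mice received them is not stated either. The other libraries, used here as levels or as pairs of their own, are the infarcted side at 1 m with and without LEV, the non-infarcted side at 7 d with and without LEV, the non-infarcted side at 2 m after 2 weeks of withdrawal, and naive cortex. The infarcted side at 7 d and 2 m enters only ranges.

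Levetiracetam is an anti-seizure drug that binds SV2A, a protein of synaptic vesicles, and through it lowers transmitter release during intense firing. After a stroke the cortex of the other hemisphere is connected to the lesion through the corpus callosum, and its neurons, astrocytes and microglia can respond to the lost input and to seizures. RNA was measured by CAGE, short for cap analysis of gene expression, which reads tags at the capped 5′ ends of transcripts, here from whole cortex. In such tissue, fewer cells of a type and less RNA per cell cannot be told apart.

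Each group has 1 library, so no difference here has a replicate check, and no p-value is given for this pair. A ratio is the CPM in the LEV library over the CPM in the no-drug library, with an exact 95% interval that covers the counting of tags only. A gene is called where the ratio is at least 1.5-fold in either direction and the interval excludes 1. The LEV library held 21000367 tags and the no-drug library 13769133, and the series ran from 12928291 to 21000367. A level of 3 tags is 0.143 CPM in the LEV library and 0.218 CPM in the no-drug library. The tissue label held: Slc17a7, Tbr1 and Neurod6, markers of cortical excitatory neurons, were at 39.7 to 1738.4 CPM in the LEV library and 35.4 to 861.3 CPM in the no-drug library.

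Called genes were 280 higher in the LEV library (2.24% of 12498) and 274 lower (2.19%). The log2 ratios had a median of 0.03 and an SD across genes of 0.3, and 90% of genes lie between −0.45 and 0.47. Only 29 genes were higher by at least 2-fold, and 31 were lower by as much. The split moved with the scaling: it was 225 higher and 330 lower with TMM factors and 226 higher and 329 lower with DESeq2 size factors, which shift every log2 ratio down by 0.03. Of the genes named here, Cck, Nfkbia, Prox1, Kcnt2 and H4c8, at 1.51 to 1.52-fold, are no longer called higher under these factors, and Dbp, Adora2a and Rgs16 are then called lower. On the log2(CPM + 1) scale, Nfkbia, Prox1, Kcnt2, Slc22a6, Sox17 and Smtn lose their calls.

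The same contrast on the infarcted side at 1 m shares no library with this pair, although the labels do not say whether it shares mice or a preparation. There, 421 of 12762 genes were called higher (3.3%) and 537 lower (4.21%). Of the 280 genes higher on the non-infarcted side, 264 had a ratio above 1 on the infarcted side and 114 were called higher there, which is 40.7% of the 280 and 27.1% of the 421. Of the 274 lower genes, 251 were below 1 there and 151 were called lower, which is 55.1% of the 274 and 28.1% of the 537. Against the direction here, 1 of the higher and 7 of the lower genes were called there. Over all 12498 genes, 9241 had the same sign on both sides, and the log2 ratios of the 2 pairs correlated across genes with r = 0.65. In contrast, the non-infarcted pair at 7 d had 34 of 12540 genes called higher (0.271%) and 89 called lower (0.71%). Of the 280 higher genes at 1 m, 136 were above 1 at 7 d and 0 were called higher, and of the 274 lower genes 145 were below 1 and 7 were called lower. The r across genes with the 7 d pair was −0.01. These r values describe genes, which are not independent, within single libraries.

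**Figure D1:**
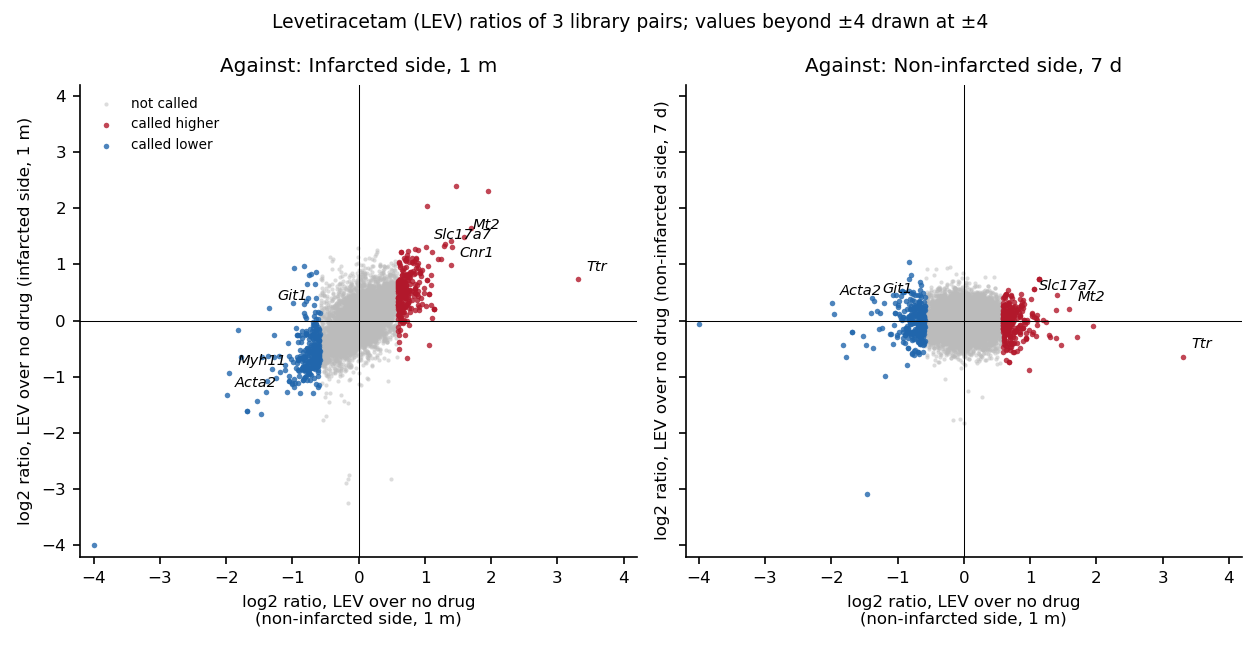
Each point is a gene; the x axis is the log2 ratio of LEV over no drug on the non-infarcted side at 1 m, and the y axis is the same ratio on the infarcted side at 1 m (left) or on the non-infarcted side at 7 d (right), red for called higher, blue for called lower, grey for not called. The cloud leans along the diagonal on the left (r = 0.65 over 12498 genes) and lies flat on the right (r = −0.01).

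Which of the 2 libraries stood apart was read from 4 others of naive or non-infarcted cortex, those at 7 d with and without LEV, at 2 m after withdrawal and naive. Among the 280 higher genes, 121 lay outside the range of these 4 in the LEV library alone, 43 in the no-drug library alone, 99 in both and 17 in neither. Among the 274 lower genes the same counts were 81, 83, 89 and 21. Over all 12498 genes they were 2716, 2268, 4016 and 3498. So the LEV library alone was outside for 121 of 280 higher genes, and for lower genes the 2 libraries were alone outside about equally often. Called genes were picked because these 2 libraries differ. That selection alone makes a library outside the range more frequent for them than for all genes. The naive library was nearer to the no-drug library than to the LEV library for 203 of the 280 higher genes, 168 of the 274 lower genes and 7251 of all 12498. For the no-drug library at 7 d the same counts were 180, 136 and 6484, and for the library after withdrawal 196, 135 and 6814.

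All 3 metallothionein genes of the table were called higher, Mt2 and Mt1 by over 2-fold and Mt3 by less than the median higher gene (log2 ratios of 0.66 and 0.69). Metallothioneins are small cysteine-rich proteins that bind zinc and copper; Mt1 and Mt2 are made mostly by astrocytes and are induced by metals, glucocorticoids and oxidative stress, and Mt3 is the brain form. Mt2 was at 520.5 CPM in the LEV library and 173.1 CPM in the no-drug library, a ratio of 3.01 (95% counting interval 2.88 to 3.15). The 4 other libraries of naive or non-infarcted cortex held 59.2 to 295.8 CPM of it, so the LEV library was above and the no-drug library within them. Mt1 was at 1058.6 CPM in the LEV library and 493.7 CPM in the no-drug library, 2.14-fold (2.09 to 2.2), against 368.5 to 568.4 CPM in the 4 others. Mt3 had 2062.9 CPM in the LEV library and 1304.6 CPM in the no-drug library, 1.58-fold (1.55 to 1.61). Mt3 was named after its value was seen. On the infarcted side at 1 m, Mt2 was at 761.6 CPM with LEV and 271.7 CPM without (2.8-fold, 2.7 to 2.91), Mt1 at 1352.4 CPM with LEV and 576.9 CPM without (2.34-fold, 2.29 to 2.4), and Mt3 at 2229.7 CPM with LEV and 1384.7 CPM without. At 7 d the log2 ratios on the non-infarcted side were 0.21 for Mt2, 0.1 for Mt1 and −0.09 for Mt3.

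The promoters of the 3 genes are shown because these genes moved together and lie within 1 cluster on chromosome 8. Each is 300 bases of GRCm38.p6 on the gene's strand, from 250 before to 50 after the start annotated in RefSeq. Whether the CAGE tags of these genes lie at those starts was not tested. Capitals mark the core of the metal response element, to which the zinc-sensing factor MTF1 binds, searched on both strands as TGCGCNC or TGCACNC.
Mt2, chr8:94172368-94172667 (+): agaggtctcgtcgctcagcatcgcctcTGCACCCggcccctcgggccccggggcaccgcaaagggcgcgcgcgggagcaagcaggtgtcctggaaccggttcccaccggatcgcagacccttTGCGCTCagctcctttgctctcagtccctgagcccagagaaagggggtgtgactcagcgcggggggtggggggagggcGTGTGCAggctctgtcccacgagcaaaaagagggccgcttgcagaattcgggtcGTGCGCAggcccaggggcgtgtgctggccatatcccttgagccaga
Mt1, chr8:94178839-94179138 (+): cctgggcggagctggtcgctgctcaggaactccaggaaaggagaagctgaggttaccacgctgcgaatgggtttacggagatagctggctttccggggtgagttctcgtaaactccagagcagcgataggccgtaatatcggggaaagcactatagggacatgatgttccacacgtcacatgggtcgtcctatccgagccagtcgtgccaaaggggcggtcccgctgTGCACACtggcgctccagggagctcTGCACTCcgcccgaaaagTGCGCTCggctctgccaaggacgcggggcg
Mt3, chr8:94152357-94152656 (+): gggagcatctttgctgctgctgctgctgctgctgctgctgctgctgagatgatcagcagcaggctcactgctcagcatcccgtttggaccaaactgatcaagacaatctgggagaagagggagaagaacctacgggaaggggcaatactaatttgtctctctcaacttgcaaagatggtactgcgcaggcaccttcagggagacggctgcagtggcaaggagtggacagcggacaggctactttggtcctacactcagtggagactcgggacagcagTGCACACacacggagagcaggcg
The window of Mt2 holds 4 matches, that of Mt1 holds 3 and that of Mt3 holds 1. Of 32851 promoter windows of this length, 25.7% hold at least 1 match and 1.97% hold at least 3. A match describes the letters and does not show that a factor is bound.

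Neuronal genes called in this pair were mostly higher with LEV, and they were few. Slc17a7 (chr7:45163949-45176142 in GRCm38) encodes VGLUT1, which loads glutamate into vesicles of cortical neurons, and was at 1738.4 CPM in the LEV library and 861.3 CPM in the no-drug library, 2.02-fold (1.98 to 2.06). The 4 other libraries of naive or non-infarcted cortex had 530.6 to 797.5 CPM, so both libraries at 1 m lay above them. The infarcted side had 1516.3 CPM with LEV and 615.1 CPM without, 2.47-fold. Rorb, a layer 4 transcription factor, was at 68.6 CPM in the LEV library and 39.8 CPM in the no-drug library (1.72-fold, 1.56 to 1.91), with 64.4 to 71.3 CPM in both 7 d libraries, 39.1 CPM in naive cortex and 9.96 CPM at 2 m. Of the 15 excitatory neuron genes, Slc17a7 and Rorb were called higher and 0 lower, with a median log2 ratio of 0.1 and 10 above 1. Fezf2, a factor of layer 5 neurons, was just short of a call at 29.4 CPM in the LEV library and 19.6 CPM in the no-drug library (1.5-fold, 1.3 to 1.74), and Bcl11b (CTIP2), of the same neurons, was at 92.9 CPM with LEV and 71.6 CPM without (1.3-fold, 1.2 to 1.4). Other markers of these cells were closer: Camk2a was at 1312.3 CPM in the LEV library and 1320.9 CPM in the no-drug library, and Tbr1 at 60 CPM with LEV and 56 CPM without.

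Cnr1 (chr4:33924593-33948831), the cannabinoid receptor CB1 that sits on axon terminals and is densest on the cholecystokinin-type interneurons, was at 162.8 CPM in the LEV library and 62.2 CPM in the no-drug library, 2.62-fold (2.43 to 2.82). The 4 other libraries of naive or non-infarcted cortex held 79.5 to 104.1 CPM, so the LEV library was above them and the no-drug library below. Cnr1 on the infarcted side had 172.6 CPM with LEV and 87 CPM without. Cck, the peptide cholecystokinin of those interneurons and of many pyramidal cells, was at 647.7 CPM in the LEV library and 425.4 CPM in the no-drug library (1.52-fold, 1.48 to 1.57). Vip, a peptide of interneurons that inhibit other interneurons, was at 47.8 CPM in the LEV library and 30.6 CPM in the no-drug library (1.56-fold, 1.39 to 1.75). Of 13 inhibitory neuron genes these 2 were called higher and 0 lower, with a median log2 ratio of 0.14 here and 0.15 on the infarcted side. The interneuron genes at the centre of the list hardly moved: Sst was at 574.5 CPM in the LEV library and 569.5 CPM in the no-drug library, Gad1 at 243.1 CPM with LEV and 221.1 CPM without, Gad2 at 87.6 CPM with LEV and 77.6 CPM without, and Pvalb at 112.9 CPM with LEV and 128.7 CPM without. Npy, a peptide with anti-seizure action, was at 177.1 CPM in the LEV library and 136.4 CPM in the no-drug library and was not called. Hs3st4, which modifies heparan sulphate and is strong in deep-layer neurons, was at 71.7 CPM in the LEV library and 31.2 CPM in the no-drug library (2.3-fold, 2.06 to 2.57), and on the infarcted side at 70.5 CPM with LEV and 32.9 CPM without.

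**Figure D2:**
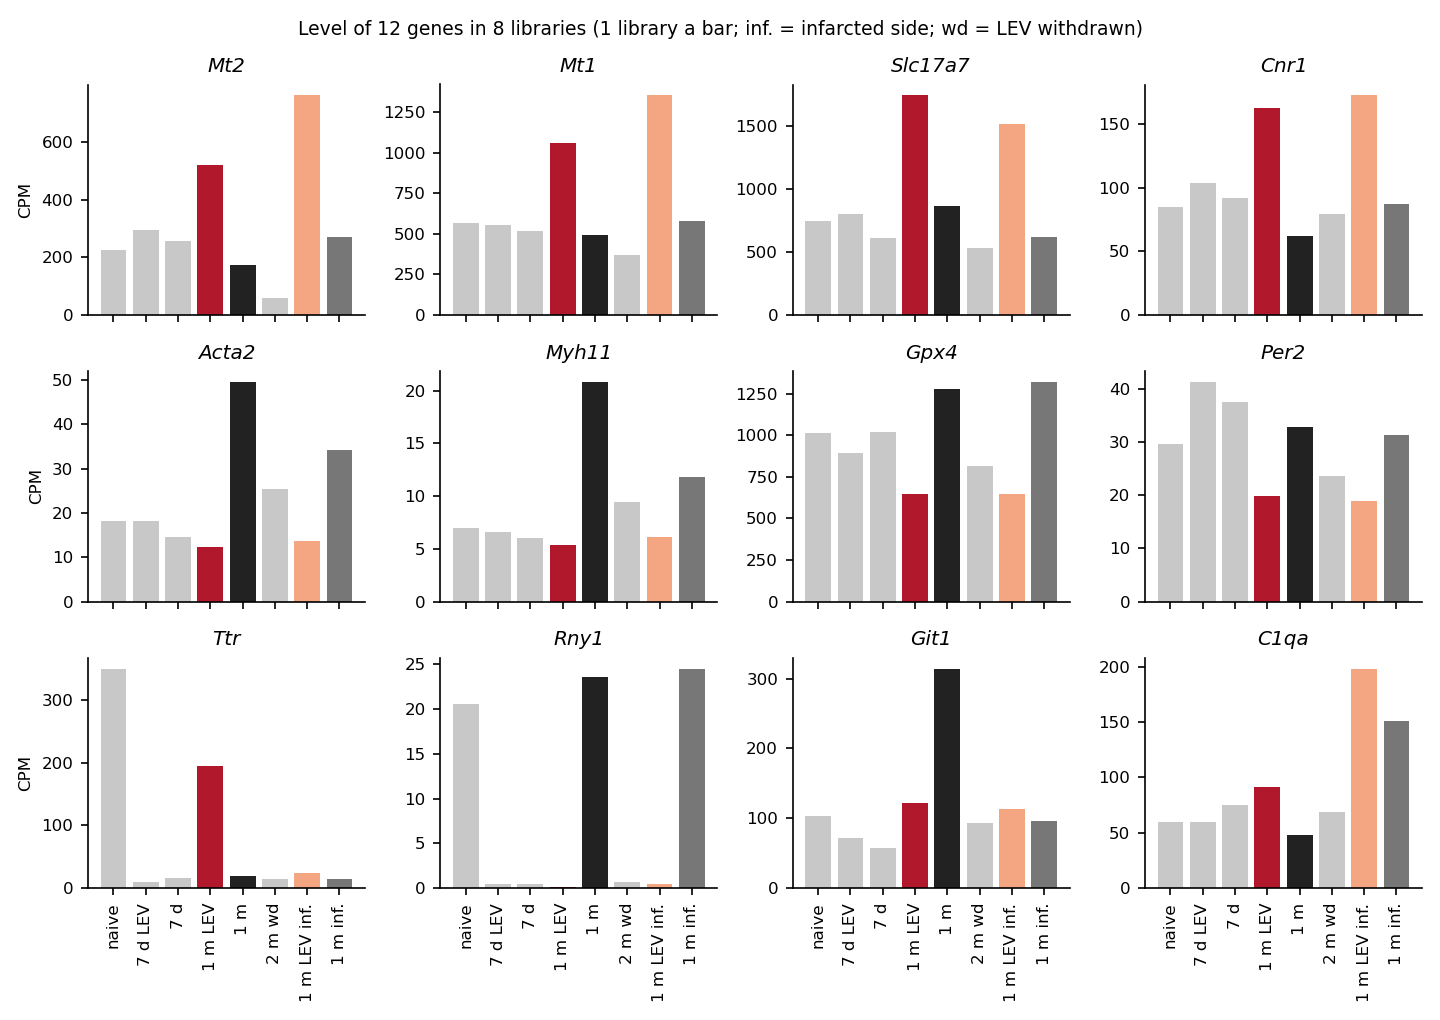
Bars give the CPM of 12 genes in 8 libraries, 1 library each: naive, the non-infarcted side at 7 d and 1 m with LEV and without, at 2 m after withdrawal (wd), and the infarcted side (inf.) at 1 m with LEV and without; each axis starts at 0. Red and orange bars are LEV at 1 m, black and dark grey bars no drug at 1 m. Mt2, Mt1, Slc17a7 and Cnr1 are highest in the 2 LEV libraries at 1 m, Acta2 and Myh11 in the 2 no-drug libraries at 1 m, and Git1 in 1 no-drug library.

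The target of the drug did not differ beyond counting in this pair. Sv2a was at 142.4 CPM in the LEV library and 139.7 CPM in the no-drug library, a ratio of 1.02 (0.962 to 1.08). Sv2b was at 360.9 CPM with LEV and 349.3 CPM without (1.03, 0.996 to 1.07), and Sv2c at 23.4 CPM with LEV and 22.4 CPM without (1.04, 0.904 to 1.21). Since no group has a second library, these intervals leave out the spread between animals and do not show that the levels are alike. Of 19 genes of SV2 and synaptic vesicle proteins, 1 was called higher and 0 lower, with a median log2 ratio of 0.05. The called gene was Syn3, a synapsin, at 23.2 CPM in the LEV library and 14.5 CPM in the no-drug library (1.6-fold, 1.36 to 1.9), with 16.5 to 26.1 CPM in the 4 other libraries of naive or non-infarcted cortex, so that the no-drug library was the low one.

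Few receptor and channel genes were called, as over all 12498 genes, of which 2.24% were called higher and 2.19% lower. At that share, lists this short would hold few calls. Of 12 GABA-A receptor subunit genes 0 were called in either direction, although 10 were above 1, and the median log2 ratio was 0.11 on both sides at 1 m. Gabrd, a subunit of extrasynaptic receptors, was at 72.1 CPM in the LEV library and 59.4 CPM in the no-drug library. Of 15 ionotropic glutamate receptor genes, Grin3a, an NMDA receptor subunit, was called higher (23.2 CPM in the LEV library, 14.7 CPM in the no-drug library, 1.58-fold, 1.34 to 1.88) and 0 lower. Of 20 voltage-gated channel genes, Kcnt1, a sodium-activated potassium channel, was called higher at 72.6 CPM in the LEV library and 42.5 CPM in the no-drug library (1.71-fold, 1.55 to 1.88), and 0 were lower. Among 49 potassium channel genes found by symbol, a group formed after values were seen, Kcnt1, Kcnt2 and Kcns2 were called higher, 0 lower, and the median was 0.06. Of 8 genes of chloride transport and potassium buffering 0 were called. Slc12a5 (KCC2), which extrudes chloride from neurons, was at 459.1 CPM in the LEV library and 342.2 CPM in the no-drug library (1.34-fold, 1.3 to 1.39), and Slc12a2 (NKCC1), which imports it, at 40.8 CPM with LEV and 29.4 CPM without (1.39-fold, 1.23 to 1.57). Of 8 perineuronal matrix genes 0 were called, 6 were above 1 and the median was 0.27.

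Immediate early genes, which neurons switch on within minutes of firing, were called higher for 2 of 20 and lower for 0, with a median log2 ratio of 0.18 here and 0.19 on the infarcted side. Fosb was at 8.05 CPM in the LEV library and 4.72 CPM in the no-drug library (1.7-fold, 1.27 to 2.31). Fosl2 was at 45.7 CPM in the LEV library and 27 CPM in the no-drug library (1.69-fold, 1.5 to 1.91). Of the genes often used as marks of firing, Fos, Arc and Egr1 were close. Fos was at 12.4 CPM in the LEV library and 11.4 CPM in the no-drug library. Arc was at 93.2 CPM with LEV and 96.6 CPM without, and Egr1 at 292.3 CPM with LEV and 315.6 CPM without. Npas4, another such gene, was higher at 15.4 CPM with LEV and 11 CPM without (log2 ratio 0.48), short of a call. Bdnf, a growth factor that firing induces, was at 20.9 CPM in the LEV library and 16.4 CPM in the no-drug library (1.27-fold, 1.08 to 1.5).

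Complement and MHC class I genes lay mostly above a ratio of 1 on this side, while the medians of both lists were below 0 on the log2 scale on the infarcted side. C1qa, C1qb and C1qc encode the chains of C1q, which microglia secrete and which tags synapses for removal. C1qa was at 91.1 CPM in the LEV library and 47.7 CPM in the no-drug library (1.91-fold, 1.75 to 2.09). The 4 other libraries of naive or non-infarcted cortex held 59.6 to 75.3 CPM, so the LEV library was above and the no-drug library below them. C1qc was at 104 CPM in the LEV library and 67 CPM in the no-drug library (1.55-fold, 1.44 to 1.68), and C1qb at 83.3 CPM with LEV and 57.7 CPM without (1.44-fold, not called). With LEV, C1qa on the infarcted side was at 198.1 CPM, and without it at 150.5 CPM. C4b, made by astrocytes as well, was at 18.8 CPM in the LEV library and 13.3 CPM in the no-drug library. Of 12 activated microglia and complement genes, 10 were above 1, 2 were called higher and 0 lower, with a median log2 ratio of 0.47. In infarcted cortex the median of the same 12 genes was −0.41 and 5 of them had the same sign as here; Lyz2, a lysozyme of macrophages, was at 54.4 CPM with LEV and 383.5 CPM without there, and at 18 CPM with LEV and 12.8 CPM without here. Whether the 2 sides differ was not tested.

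B2m, the light chain of MHC class I, was at 70.4 CPM in the LEV library and 37.8 CPM in the no-drug library (1.86-fold, 1.68 to 2.06), within the 29.2 to 81.2 CPM of the 4 other libraries. All 7 MHC class I genes compared were above 1, with 1 called, a range of 0.01 to 0.9 and a median log2 ratio of 0.23; on the infarcted side 1 of the 7 had the same sign and the median was −0.3. Of 8 interferon response genes 0 were called, and the median was 0.17 here and −0.22 on the infarcted side. Homeostatic microglia genes had 0 of 10 called and a median of 0.12. Cx3cr1, a receptor of resting microglia, was at 13.9 CPM in the LEV library and 13.1 CPM in the no-drug library, and Aif1 (IBA1) at 30.2 CPM with LEV and 31.4 CPM without.

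Astrocyte and myelin genes lay mostly above a ratio of 1, with median log2 ratios of 0.29 for reactive astrocytes, 0.14 for homeostatic astrocytes and 0.2 for myelin. Over all 12498 genes compared, 6783 were above 1. At a mean of at least 20 CPM the myelin median was 0.08. Of 5 reactive astrocyte genes 1 was called higher: Serpina3n, a protease inhibitor, at 8.9 CPM in the LEV library and 4.94 CPM in the no-drug library (1.8-fold, 1.36 to 2.42). Gfap, the intermediate filament that reactive astrocytes accumulate, was at 157.5 CPM in the LEV library and 107.3 CPM in the no-drug library (1.47-fold, 1.38 to 1.56), just short of a call, with 108.5 to 198.8 CPM in the 4 other libraries. Of 12 homeostatic astrocyte genes Aldh1l1, an enzyme of folate metabolism used as an astrocyte marker, was called higher (22.4 CPM in the LEV library, 14.3 CPM in the no-drug library), and 0 were lower. Aqp4, the water channel, was at 22.3 CPM with LEV and 20.3 CPM without, and Slc1a2, the main glutamate transporter, at 1321.6 CPM with LEV and 1203.1 CPM without. Mlc1, a membrane protein of astrocyte endfeet named after its value was seen, was at 41.3 CPM in the LEV library and 21.6 CPM in the no-drug library (1.91-fold, 1.67 to 2.19). Of 15 myelin and oligodendrocyte genes 0 were called, 11 were above 1; Mbp was at 1355.6 CPM with LEV and 1476.3 CPM without. Of 8 oligodendrocyte precursor genes Cspg4 (NG2), which pericytes also express, was called lower at 5.62 CPM in the LEV library and 9.22 CPM in the no-drug library (0.609, 0.47 to 0.789), and 0 were higher. Hes5 and Id4, transcriptional regulators of the Notch and BMP pathways that glial progenitors and astrocytes express, were also called lower. Both were named after their values were seen. Hes5 was at 21.5 CPM in the LEV library and 46.3 CPM in the no-drug library (0.465, 0.411 to 0.525), and Id4 at 48.2 CPM with LEV and 79.7 CPM without (0.604, 0.554 to 0.659).

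**Figure D3:**
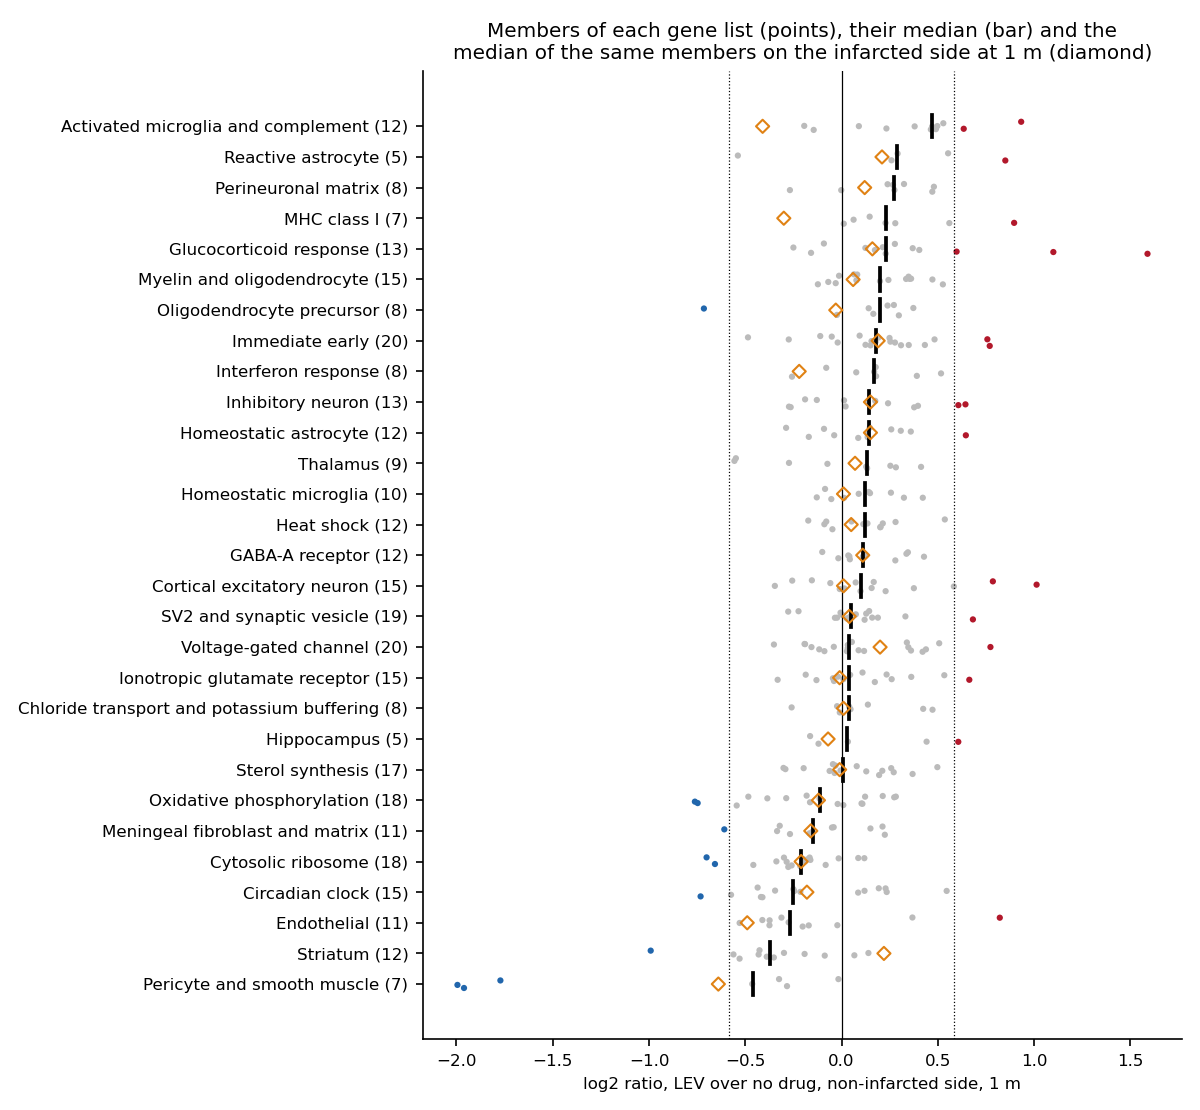
Each row is a gene list with at least 5 members compared (number in brackets); points are the members' log2 ratios of LEV over no drug on the non-infarcted side at 1 m (red called higher, blue called lower, grey not called), black bars the median, and diamonds the median of the same members on the infarcted side. Dotted lines mark 1.5-fold. Among the lists whose bar and diamond lie on opposite sides of 0 are activated microglia and complement (0.47 and −0.41), MHC class I (0.23 and −0.3), interferon response (0.17 and −0.22) and striatum (−0.37 and 0.22).

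The contractile genes of vascular smooth muscle were called lower with LEV, and the pericyte and smooth muscle list had the lowest median of the lists at the limit of 5 CPM. With no limit, the blood and neutrophil list was lower (−1.24, against −0.54 for pericyte and smooth muscle), and at a mean of at least 1 CPM that list (−0.65) and hypothalamus and pituitary (−0.64) were. Acta2 (chr19:34241090-34255590), smooth muscle actin, was at 12.4 CPM in the LEV library and 49.5 CPM in the no-drug library, a ratio of 0.251 (0.217 to 0.29). The 4 other libraries of naive or non-infarcted cortex held 14.6 to 25.4 CPM, so the LEV library was below them and the no-drug library far above them. Myh11, smooth muscle myosin, was at 5.33 CPM in the LEV library and 20.8 CPM in the no-drug library (0.257, 0.204 to 0.321), against 6.06 to 9.47 CPM in the 4 others. Tagln, an actin-binding protein of the same cells, was at 4.38 CPM with LEV and 15 CPM without (0.293, 0.226 to 0.376). Myl9, a myosin light chain, was at 9.1 CPM with LEV and 21.5 CPM without (0.423, 0.351 to 0.509). Carmn, the non-coding RNA next to the smooth muscle miRNAs miR-143 and miR-145, was at 4.38 CPM with LEV and 12.6 CPM without (0.347, 0.266 to 0.449). On the infarcted side at 1 m the same 5 genes were lower too: Acta2 was at 13.6 CPM with LEV and 34.2 CPM without, Myh11 at 6.14 CPM with LEV and 11.8 CPM without, Tagln at 6.46 CPM with LEV and 10.1 CPM without, Myl9 at 9.01 CPM with LEV and 18.2 CPM without, and Carmn at 4.69 CPM with LEV and 12.6 CPM without. The ratio of Tagln there, 0.638 (0.497 to 0.817), passed the call by little.

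Among 7 pericyte and smooth muscle genes, Acta2, Tagln and Myh11 were called lower, 0 higher, all 7 were below 1, and the median log2 ratio was −0.46 here and −0.64 on the infarcted side. The genes of that list shared with pericytes moved less: Rgs5 was at 40.3 CPM in the LEV library and 55.6 CPM in the no-drug library, Pdgfrb at 23.1 CPM with LEV and 28.1 CPM without, and Notch3 at 8.9 CPM with LEV and 9.01 CPM without. The summed level of all 10 genes of the list in the table was 149.4 CPM in the LEV library and 248.6 CPM in the no-drug library, against 159.0 to 178.4 CPM in the 4 others. For the infarcted side at 1 m it was 164.8 CPM with LEV and 271.5 CPM without. On the non-infarcted side the no-drug library at 1 m was thus above the 4 others, and the LEV library was below them. The infarcted side at 7 d and 2 m held 224.6 to 288.8 CPM, so on that side the LEV library at 1 m was the low one. How much of large surface vessels each dissection held was not tested. Some genes outside the list were named after their values were seen, so their lower calls add no support. Cald1 was at 20.6 CPM with LEV and 35.4 CPM without, and Flna at 25.5 CPM with LEV and 46.6 CPM without. Smtn was at 3.86 CPM with LEV and 6.17 CPM without, and Ednra, the endothelin A receptor, at 5.71 CPM with LEV and 11 CPM without.

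The promoters of Acta2 and Myl9 were searched for the CArG box, the site of serum response factor that smooth muscle genes are known for. That of Myl9 is shown because it holds a match. The window is again 300 bases from RefSeq on GRCm38.p6, and capitals mark the box, searched on both strands for exact matches to its consensus.
Myl9, chr2:156775214-156775513 (+): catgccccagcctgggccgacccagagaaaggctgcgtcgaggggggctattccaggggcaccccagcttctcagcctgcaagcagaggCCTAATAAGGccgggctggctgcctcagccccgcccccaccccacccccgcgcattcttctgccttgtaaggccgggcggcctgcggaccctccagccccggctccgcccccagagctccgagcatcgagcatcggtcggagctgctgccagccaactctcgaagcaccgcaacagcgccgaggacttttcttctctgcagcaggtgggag
This window holds 1 exact match and that of Acta2 holds 0, and 1.63% of the 32851 promoter windows hold at least 1. Boxes that depart from the consensus by a base are not counted, so the 0 does not show that Acta2 lacks a box. The promoters of Myh11, Tagln and Carmn were not searched.

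Endothelial genes lay below 1 by less, and their lower calls were outside the list. Of 11 endothelial genes 9 were below 1, with a median log2 ratio of −0.27 here and −0.49 on the infarcted side; 0 were called lower and Mfsd2a, a lipid transporter of the blood-brain barrier, was called higher at 16 CPM in the LEV library and 9.08 CPM in the no-drug library (1.77-fold, 1.44 to 2.19). Cldn5, a tight junction protein of all brain endothelium, was at 48 CPM with LEV and 48.7 CPM without. Outside the list, and named after their values were seen, Vwf was at 4.19 CPM in the LEV library and 8.5 CPM in the no-drug library (0.493, 0.37 to 0.656). Nos3, endothelial nitric oxide synthase, was at 7.95 CPM with LEV and 16.1 CPM without (0.495, 0.403 to 0.608). Ackr1, a chemokine-binding receptor of venules, was at 3 CPM with LEV and 7.84 CPM without (0.382, 0.276 to 0.527), and Sox17, a factor of arteries, at 4.33 CPM with LEV and 6.54 CPM without. All 4 were below 1 on the infarcted side as well. Of 11 meningeal fibroblast and matrix genes Slc22a6, an organic anion transporter, was called lower (5.62 CPM with LEV, 8.57 CPM without, 0.656, and 0.692 and not called on the log2(CPM + 1) scale), 0 were higher and the median was −0.15.

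Among highly expressed genes of respiration, translation and protein turnover, the called ones were mostly lower with LEV. Gpx4, the selenoprotein that reduces lipid peroxides, was at 648.4 CPM in the LEV library and 1275.2 CPM in the no-drug library (0.508, 0.497 to 0.52), and at 644 CPM with LEV and 1319.2 CPM without on the infarcted side. The 4 other libraries of naive or non-infarcted cortex had 815 to 1021.5 CPM, so the LEV library was below and the no-drug library above them. Of 18 selenoprotein genes, grouped after values were seen, Gpx4, Selenow and Selenoo were called lower and 0 higher, with a median of 0.04. Of 18 genes of oxidative phosphorylation 2 were called lower and 0 higher, with a median log2 ratio of −0.11 here and −0.12 on the infarcted side, where all 18 had the same sign as here. Ndufa4 was at 1347.3 CPM with LEV and 2284.4 CPM without (0.59, 0.58 to 0.599), and Ndufb9, a complex I subunit, at 541.1 CPM with LEV and 908.4 CPM without (0.596, 0.581 to 0.611). Atp5md, a small subunit of ATP synthase, was at 2188.1 CPM in the LEV library and 3920.2 CPM in the no-drug library (0.558, 0.551 to 0.565), and Timm8b, a mitochondrial import protein, at 406.4 CPM with LEV and 712.8 CPM without (0.57, 0.554 to 0.587); both were chosen after their values were seen. In the 4 other libraries Atp5md was at 1809.6 to 2869.2 CPM, so here the no-drug library was the one outside.

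Of 18 cytosolic ribosomal protein genes listed, Rps19 and Rps3 were called lower and 0 higher, 16 were below 1, and the median was −0.21 on both sides at 1 m. Rps3 shares its tags with the small nucleolar RNA Snord15a inside it. Among all 82 such genes compared, grouped after values were seen, 9 were called lower and 1 higher, with a median of −0.16 here and −0.15 on the infarcted side. Rps6, a small subunit protein that growth signals phosphorylate, was at 140 CPM with LEV and 281.6 CPM without (0.497, 0.474 to 0.522). The 1 higher gene, Rps2, shares its tags with Snora64 and was at 917.8 CPM with LEV and 480.9 CPM without (1.91-fold, 1.86 to 1.96), with 592.3 to 1032.6 CPM in the 4 other libraries. Of 16 core proteasome genes, also grouped afterwards, Psma3, Psma5 and Psma7 were called lower, Psmb4 higher, and the median was −0.24. In the other direction, 5 of 43 histone genes, H4c9, H4c2, H4c8, H3c7 and H2bc15 (which shares its tags with Gm44454), were called higher and 0 lower, with a median of 0.22 on both sides at 1 m. H4c9 was at 36.3 CPM with LEV and 14.9 CPM without (2.44-fold, 2.09 to 2.86), and on the infarcted side at 36.8 CPM with LEV and 14.6 CPM without. Cell cycle genes, which would accompany dividing cells, summed to 7.76 CPM with LEV and 6.03 CPM without over 14 genes, and 0 reached the limit of 5 CPM. With no such gene compared, the part of dividing cells in the histone calls was not tested.

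Calls were denser among short genes. The longest annotated transcript had a median of 3054 bases for higher genes, 2286 for lower genes and 3390 for all genes compared. Of 443 genes under 500 bases, 6.55% were called higher and 8.35% lower, and of 609 genes from 500 to 1000 bases 3.45% were higher and 6.9% lower, with a median log2 ratio of −0.11. In 4061 genes from 4000 to 8000 bases 1.99% were higher and 1.4% lower. Across genes the log2 ratio correlated with log10 length at r = 0.07 and with transcript GC content at r = −0.04. The part of RNA quality or library preparation in this was not tested.

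**Figure D4:**
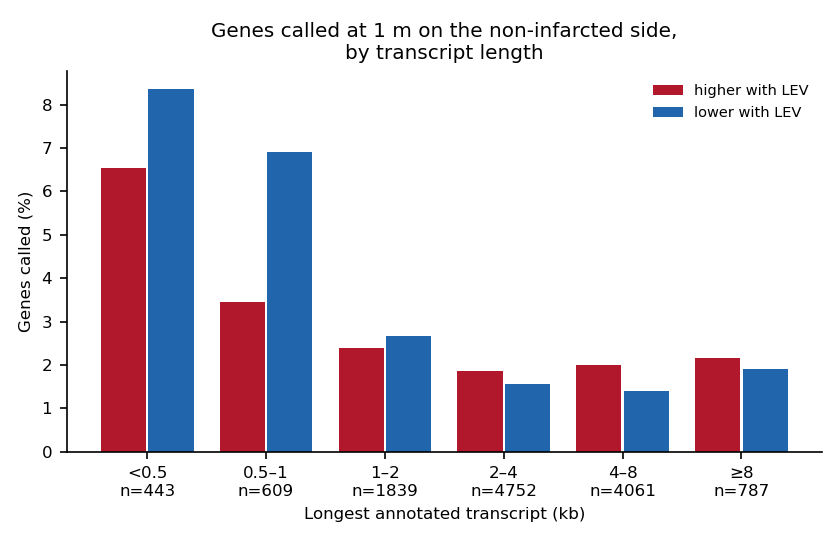
Bars give the percentage of genes called higher (red) and lower (blue) in the LEV library against the no-drug library, non-infarcted side at 1 m, in 6 classes of transcript length, with the number of genes under each class. Both percentages are highest below 0.5 kb (6.55% and 8.35%), and lower calls exceed higher calls most from 0.5 to 1 kb.

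Clock, hormone and stress genes gave a small set of calls. Per2, a clock repressor, was at 19.8 CPM in the LEV library and 32.8 CPM in the no-drug library (0.602, 0.526 to 0.689), below the 23.6 to 41.3 CPM of the 4 other libraries, and on the infarcted side at 19 CPM with LEV and 31.4 CPM without. Dbp, an output factor of the clock, was at 39.8 CPM with LEV and 59.2 CPM without (0.672), and Nr1d1, which represses Bmal1, at 61.1 CPM with LEV and 82.6 CPM without (0.739), while Hlf, related to Dbp, was at 259.1 CPM with LEV and 177.5 CPM without (1.46-fold). Of 15 clock genes Per2 was called lower and 0 higher, 9 were below 1 and the median was −0.25; the hour of sampling is not given. Of 13 glucocorticoid response genes Mt1, Mt2 and Nfkbia were called higher and 0 lower. In that list 10 genes were above 1, and the median log2 ratio was 0.23 here and 0.16 on the infarcted side. Other well-known glucocorticoid targets of that list were not called: Fkbp5 was at 27.5 CPM with LEV and 20.8 CPM without, Sgk1 at 54 CPM with LEV and 47.9 CPM without, and Tsc22d3 at 41.1 CPM with LEV and 43.8 CPM without. Of 12 heat shock genes and 17 sterol synthesis genes 0 were called, with medians of 0.12 and 0.01.

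Lists of genes that mark tissues other than cortex were also compared. Ttr, transthyretin, the main secreted protein of the choroid plexus, had the highest ratio of all named genes: 195.3 CPM in the LEV library and 19.8 CPM in the no-drug library, 9.89-fold (8.74 to 11.2). Naive cortex held 349.7 CPM, and the 3 other libraries of non-infarcted cortex 10.4 to 16.3 CPM, so the LEV library and the naive one were both high. Of 15 choroid plexus genes 3 reached 5 CPM. Their list summed to 361.5 CPM in the LEV library and 155.3 CPM in the no-drug library, against 172.1 to 525.9 CPM in the 4 others. The defining markers below the limit were low: Folr1 was at 1.19 CPM with LEV and 0.291 CPM without, Clic6 at 3.86 CPM with LEV and 3.41 CPM without, Kl at 3.33 CPM with LEV and 2.18 CPM without, and Kcne2 was at 0 in the no-drug library. Their part in the result for Ttr was not tested.

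Of 12 striatum genes, Syndig1l was called lower at 16.5 CPM in the LEV library and 32.8 CPM in the no-drug library (0.503, 0.436 to 0.58), 0 were higher, 10 were below 1 and the median was −0.37, while on the infarcted side the median was 0.22. The striatum list summed to 697.7 CPM with LEV and 872.5 CPM without, against 738.4 to 918.3 CPM in the 4 others. Of 9 thalamus genes 0 were called, and of 5 hippocampus genes Prox1 was called higher (9.62 CPM with LEV, 6.32 CPM without) and 0 lower. Of 3 hypothalamus and pituitary genes, Avp, vasopressin, was called lower at 6.14 CPM with LEV and 12.1 CPM without (0.506, 0.399 to 0.641). Of 2 ependyma genes and 2 olfactory and basal forebrain genes 0 were called. Of 3 blood and neutrophil genes, S100a8, a neutrophil protein, was called lower at 2.71 CPM with LEV and 7.48 CPM without (0.363, 0.258 to 0.506), while the globin Hbb-bs was at 79.7 CPM with LEV and 82.7 CPM without. Where these lists moved with neuronal or vascular genes, the part of such tissues in those results was not tested.

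Some of the lowest and highest ratios followed single libraries. Rny1, a small non-coding RNA bound by the Ro protein, was at 0.143 CPM in the LEV library, which is 3 tags, and at 23.6 CPM in the no-drug library, a ratio of 0.00605 (0.00124 to 0.0178). It was also at 24.5 CPM on the infarcted side at 1 m without LEV and 20.5 CPM in naive cortex, and between 0.174 and 1.37 CPM in the remaining libraries apart from the LEV one. The 3 libraries with Rny1 are those of mice without LEV other than at 7 d, so the drug, the time and the way these libraries were made cannot be told apart for it. LTO1 shares its tags with Bc1, a neuronal RNA of the same locus, and was at 12.1 CPM with LEV and 39.2 CPM without (0.31, 0.266 to 0.36), against 20.5 to 36.2 CPM in the 4 other libraries of naive or non-infarcted cortex.

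Git1, a scaffold protein of synapses and focal adhesions, was at 122.7 CPM in the LEV library and 314.3 CPM in the no-drug library (0.39, 0.372 to 0.41). The other 9 libraries of the series held 51.1 to 112.9 CPM. Both libraries were thus above the 9 others, the LEV library by little and the no-drug library by far. For Mast2 and Bsn the no-drug library alone was outside the 9 others. Mast2, a kinase, was at 43.4 CPM with LEV and 104.7 CPM without, where the 9 others held 27.1 to 59.0 CPM. Bsn (bassoon) was chosen after its value was seen and shares tags with Gm37247 and Gm37230. It was at 310.8 CPM with LEV and 586.7 CPM without, where the 9 others held 215.7 to 488.5 CPM. Git1 on the infarcted side was at 112.9 CPM with LEV and 96.9 CPM without. Gp1bb was at 11.1 CPM with LEV and 26.9 CPM without (0.414, 0.35 to 0.488), with 14.1 to 23.9 CPM in the 9 others, and BC028528 at 3.1 CPM with LEV and 8.64 CPM without.

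Among the higher genes, Gtf2a1, a subunit of the general factor TFIIA, was at 97.5 CPM in the LEV library and 36.7 CPM in the no-drug library (2.66-fold, 2.41 to 2.94), against 25.1 to 37.2 CPM in the 4 other libraries of naive or non-infarcted cortex. Infarcted cortex held it at 94.6 CPM with LEV and 38 CPM without, so that both LEV libraries at 1 m were high, and the 9 libraries left in the series were at 25.1 to 38 CPM. Prpf8, a core protein of the spliceosome, followed the same pattern with 68.3 CPM with LEV and 33.1 CPM without (2.06-fold, 1.85 to 2.3) here and 70.3 CPM with LEV and 35.8 CPM without on the infarcted side. Krt10 was at 39.6 CPM with LEV and 18.7 CPM without (2.12-fold, 1.84 to 2.45), and Frmd8os, a non-coding RNA, at 8.86 CPM with LEV and 3.2 CPM without (2.77-fold, 1.99 to 3.94). The pseudogene Rpl21-ps15 was at 35 CPM with LEV and 9.01 CPM without (3.89-fold, 3.21 to 4.74), and Rpl30-ps10 at 12.3 CPM with LEV and 3.78 CPM without (3.25-fold, 2.41 to 4.47). Their tags are uncertain, since they can come from near-identical copies: Rpl21 was at 38 CPM with LEV and 33.3 CPM without, and Rpl30 at 301.6 CPM with LEV and 246.3 CPM without. Pseudogenes made up 18 of the 280 higher genes, 13 of the 274 lower genes and 129 of all 12498.

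Some further genes called higher here, with a ratio above 1 on the infarcted side as well, were named after their values were seen. Gadd45b and Gadd45g, which firing and stress induce, were at 8.1 CPM and 18.4 CPM in the LEV library, against 4.79 CPM and 11.7 CPM in the no-drug library. Sema3a, a repulsive guidance cue found in perineuronal nets, was at 25.7 CPM with LEV and 14.3 CPM without (1.79-fold, 1.52 to 2.12), and Sema6a at 26 CPM with LEV and 15.8 CPM without (1.65-fold, 1.4 to 1.93). Slc16a1 (MCT1), a lactate and ketone transporter, was at 29 CPM with LEV and 17.5 CPM without (1.66-fold, 1.43 to 1.93), and on the infarcted side at 33.5 CPM with LEV and 15.4 CPM without. Apod, a lipid carrier of oligodendrocytes and astrocytes, was at 202 CPM with LEV and 130.9 CPM without (1.54-fold, 1.46 to 1.63).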

How the data were processed

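CAGE libraries were made by the authors from total RNA of whole cerebral cortex with random primers and cap-trapping, per the labels' protocols. The deposited values are CPM, tags per 1000000 tags of each library, of 22377 genes in 11 libraries, made by the authors. Per the submitters' processing notes, the build was GRCm38 and the tools included HISAT2 2.0.5, BWA 0.7.17 and DESeq2 1.20.0, with roles not given. All values were whole tags within 0.01 tag (100% of values), so tags and library totals were recovered, and 96.0% of the tags of the LEV library and 95.3% of the no-drug library lie in the table. Samples were grouped by the labels. Ratios have exact conditional binomial (Clopper-Pearson) 95% intervals, checked on simulated data, which cover counting error only. Identifiers were matched to GENCODE M21 (22335 genes, 99.8%); 1133 genes share tags with a neighbour. The 14 highest and 14 lowest called genes by the interval bound nearest 1, up to 4 members of each list and a panel are named; predicted genes were passed over and a set with shared tags was counted once. Genes said to be chosen after values were seen fall outside this rule. Members, lists and this rule were chosen with earlier results of these data known. Alternatives were other scalings (edgeR 4.0.16 TMM, DESeq2 1.42.0 size factors, median centring), expression limits, a pseudocount of 1 CPM, a prior count of 0.5 tags, and stricter folds; an edgeR test over both sides and the table's tags as totals were added after seeing the data. Python 3.11.15, pandas 2.3.3, numpy 2.4.6, scipy 1.17.1, matplotlib 3.10.9 and R 4.3.3 were used. Some members of the lists are not reported here by name.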

Additional observations from a re-analysis of the deposited data

Results flagged for a closer look

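Ttr was called higher with LEV on the non-infarcted side at 1 m (log2 ratio 3.31, 195.3 CPM in the LEV library and 19.8 CPM in the no-drug library) and was called lower at 7 d on the same side (log2 ratio −0.64, 10.4 CPM with LEV and 16.3 CPM without). Avp was called lower with LEV on the non-infarcted side at 1 m (log2 ratio −0.98, 6.14 CPM with LEV and 12.1 CPM without) and higher on the infarcted side at 1 m (log2 ratio 0.93, 15.6 CPM with LEV and 8.19 CPM without). With 1 library in each group, neither difference was tested.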

How the results depend on the processing

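The counts of 280 higher and 274 lower genes became 502 and 562 at a mean of at least 1 CPM, 604 and 765 with no expression limit, 136 and 131 at a mean of at least 20 CPM, 29 and 31 at 2-fold, and 71 and 101 where the whole interval had to lie beyond 1.5-fold; these settings change how many genes can pass by their construction. The counts stayed within 1.5 times under TMM factors (225 and 330), DESeq2 size factors (226 and 329), median centring (226 and 329), log2(CPM + 1) (216 and 230), a prior count of 0.5 tags (275 and 275) and the tags in the table as total (258 and 290). No named gene or list median reversed a called direction. List medians stayed within 0.44 to 0.5 for activated microglia and complement and −0.54 to −0.39 for pericyte and smooth muscle; those of hippocampus (−0.04 to 0.03), sterol synthesis (−0.02 to 0.01), homeostatic microglia (−0.05 to 0.12), ependyma (−0.43 to 0.17), olfactory and basal forebrain (−0.01 to 0.11), and hypothalamus and pituitary (−0.64 to 0.15) crossed 0, and that of blood and neutrophil ran from −1.24 to −0.05. The log2 ratio of Rny1, which rests on 3 tags with LEV, was −4.43 on the log2(CPM + 1) scale. An edgeR quasi-likelihood test of LEV at 1 m over both sides had state and side in the model (10 libraries, 4 residual degrees of freedom). It called 370 of 12803 genes at an adjusted p under 0.05 (176 higher, 194 lower) and 2903 at an unadjusted p under 0.05. It takes the 2 sides as repeats, and whether they come from the same mice is not stated. Its p-values therefore do not cover the spread between animals. Beyond that fit, which blocks on side, no replicate numbers exist to pair. For the pair of libraries described here no replicates could be paired, because each group has 1 library. Depth limits genes near 5 CPM most, and the spread between animals is unknown.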
